A study of Mus musculus with 8 samples.

Results

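The genes described here are the receptor and the enzymes of endocannabinoid and acylethanolamide signaling. They are 10 of the 55536 genes in the count table: Cnr1, Napepld, Faah, Naaa, Asah1, Dagla, Daglb, Mgll, Abhd6 and Abhd12. They were chosen by symbol and known role with earlier results of these data in view, and it was the lower level of Naaa in HAR123-KO that drew attention to the set. For that reason the values of Naaa, its place against the limits for a call included, describe these libraries and are no test of it. All 10 genes had enough counts to receive an adjusted p in the comparison over all genes.

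The study asked which frontal cortex transcripts depend on HAR123, a human accelerated region (a sequence conserved across other mammals that changed fast in the human lineage) that acts as an enhancer. There were 4 WT libraries and 4 HAR123-KO libraries, all from mice 8 weeks old with no treatment named. The HAR123-KO mice carry a CRISPR-Cas9 deletion of the mouse ortholog of HAR123, made in C57BL/6J zygotes and kept on that strain, and were compared with WT littermates. The deletion is present in every cell from fertilization on, so an adult difference cannot be placed in time or in a cell type, and the sex of the mice and the number of founder lines behind these libraries are not given in the labels. Replicates are separate samples per the labels, and where they were not separate mice the p-values measure technical spread only.

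Endocannabinoids are lipids that neurons release on demand and that travel backward across the synapse to the CB1 receptor, which dampens transmitter release. The main ones in brain are 2-arachidonoylglycerol (2-AG), cut from diacylglycerol, and anandamide, an acylethanolamide cut from a membrane phospholipid. Related acylethanolamides such as palmitoylethanolamide do not act through CB1 but are made and degraded by the same enzymes as anandamide, and they are known for limiting inflammation.

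Of the 10 genes, Naaa and Faah, which break down acylethanolamides, had the most negative fitted changes in HAR123-KO. Naaa was at 90.6 ± 5.24 normalized counts in WT libraries and at 61.5 ± 8.43 in those of HAR123-KO (SD, n = 4 each), and Faah at 297 ± 32.1 and 240.0 ± 14.8. The HAR123-KO mean of Cnr1, the CB1 receptor gene, was 91.5% of the WT mean. The genes for making and degrading 2-AG (Dagla, Daglb, Mgll, Abhd6 and Abhd12) had overlapping levels in both genotypes. The same was true of Napepld and Asah1.

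The sequences just upstream of the 3 genes whose genotypes did not overlap are shown so that the letters can be read beside the values. They are the 250 bases before the RefSeq transcription start in GRCm38.p6, written in the direction of transcription. The Naaa window is chr5:92278182-92278431 on the minus strand, and the Faah window is chr4:116017925-116018174 on the minus strand. The Cnr1 window is chr4:33924014-33924263 on the plus strand, the most upstream of its RefSeq starts. Capitals mark GGGCGG, the core of the GC box, or its reverse complement CCGCCC.
Naaa: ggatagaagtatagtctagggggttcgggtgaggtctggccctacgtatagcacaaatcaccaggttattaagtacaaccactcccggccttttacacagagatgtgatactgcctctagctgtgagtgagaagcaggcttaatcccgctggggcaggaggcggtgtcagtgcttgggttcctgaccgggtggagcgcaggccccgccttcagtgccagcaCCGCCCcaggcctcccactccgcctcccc
Faah: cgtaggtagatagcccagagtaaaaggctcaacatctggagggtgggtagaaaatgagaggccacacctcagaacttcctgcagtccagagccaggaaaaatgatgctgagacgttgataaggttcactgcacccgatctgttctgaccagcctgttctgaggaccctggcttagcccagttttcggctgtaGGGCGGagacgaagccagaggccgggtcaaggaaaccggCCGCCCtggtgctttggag
Cnr1: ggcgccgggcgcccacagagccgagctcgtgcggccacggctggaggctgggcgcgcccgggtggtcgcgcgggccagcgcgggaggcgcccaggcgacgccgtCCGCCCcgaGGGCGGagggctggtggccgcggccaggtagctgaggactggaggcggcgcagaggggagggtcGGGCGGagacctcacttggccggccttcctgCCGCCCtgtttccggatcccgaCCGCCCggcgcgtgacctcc
The Naaa window held 1 GGGCGG match, the Faah window 2 and the Cnr1 window 5. Of 32851 windows of the same length over all genes, 32.7% held at least 1. The Cnr1 window was rich in CpG, with 36 CpG dinucleotides, more than 97.4% of the windows over all genes. These features depend on the start chosen, since the other Cnr1 windows held 28 and 5 CpG dinucleotides (more than 92.4% and 44.4% of windows) and 0 GGGCGG matches. The Naaa and Faah windows held 10 and 9, more than 62.2% and 59.7% of windows. TATAAA (in 12.4% of all windows), CCAAT (33.8%) and CACGTG (6.02%) were searched on both strands too, none of these motifs contains another, and none was in the 3 windows. RefSeq windows were at hand for 7 of the 10 genes, the others being Napepld, Daglb, Mgll and Abhd6. CCAAT was in an Abhd6 window, CACGTG in a later Cnr1 window and in an Mgll window, and TATAAA in no window of the 7 genes. GGGCGG was not limited to the 3 genes shown, with 1 match in an Mgll window and 1 in an Abhd6 window. That Mgll window held 40 CpG dinucleotides, more than 98.7% of windows. A match describes the letters only.

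The libraries held 13528251 to 17051001 counts, of which 55.1% to 58.0% fell on Gm42418, a gene that overlaps ribosomal RNA sequence, and 2786320 to 3732172 fell on nuclear protein-coding genes. The Gm42418 share was 56.8% to 58.0% in WT, and 55.1%, 55.7%, 55.3% and 57.4% in HAR123-KO replicates 1 to 4. Napepld and Naaa had the fewest counts of the 10 genes. Smg6, the host gene of the deleted enhancer, was at 199 to 217 normalized counts across WT libraries and 205 to 240 across those of HAR123-KO, so its exon counts do not check the genotype labels, since the deleted element is not in its exons. Marker genes of neurons were abundant in all 8 libraries, with a summed level of 7477 to 7722 CPM over nuclear protein-coding genes, but markers of striatal projection neurons, a type of the striatum, were present too (1757 to 2261 CPM). No library stood within sampling noise of another. Normalized counts are raw counts divided by a size factor per library.

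The receptor comes first. Cnr1 (ENSMUSG00000044288, GRCm38 chr4:33924593-33948831, plus strand) was at 885, 948, 901 and 906 normalized counts in the 4 WT libraries and at 866, 823, 794 and 845 in the HAR123-KO libraries. All 4 HAR123-KO libraries lay below the lowest WT library, by a margin small beside the level itself. The log2 fold change was -0.13 ± 0.05 (SE), with a 95% interval of -0.22 to -0.04 and an adjusted p of 0.163 (Wald test of DESeq2, Benjamini-Hochberg adjustment over all genes tested). Cnr1 did not pass the threshold. The interval excludes a decline as large as that in the fitted value for Faah or Naaa.

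Napepld (ENSMUSG00000044968, chr5:21662901-21701396, minus strand) encodes the phospholipase D that releases anandamide and other acylethanolamides from their phospholipid precursors. Its WT libraries were at 51.8, 56.6, 43.2 and 59.9 normalized counts and its HAR123-KO libraries at 53.2, 64.7, 53.7 and 68.1. The genotypes overlapped. Its log2 fold change was 0.19 ± 0.18 (SE), with an interval of -0.16 to 0.53 and a DESeq2 adjusted p of 0.891. With the lowest level of the 10 genes, Napepld had the widest interval, which reaches past a change of 0.5 on the log2 scale.

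**Figure D1:**
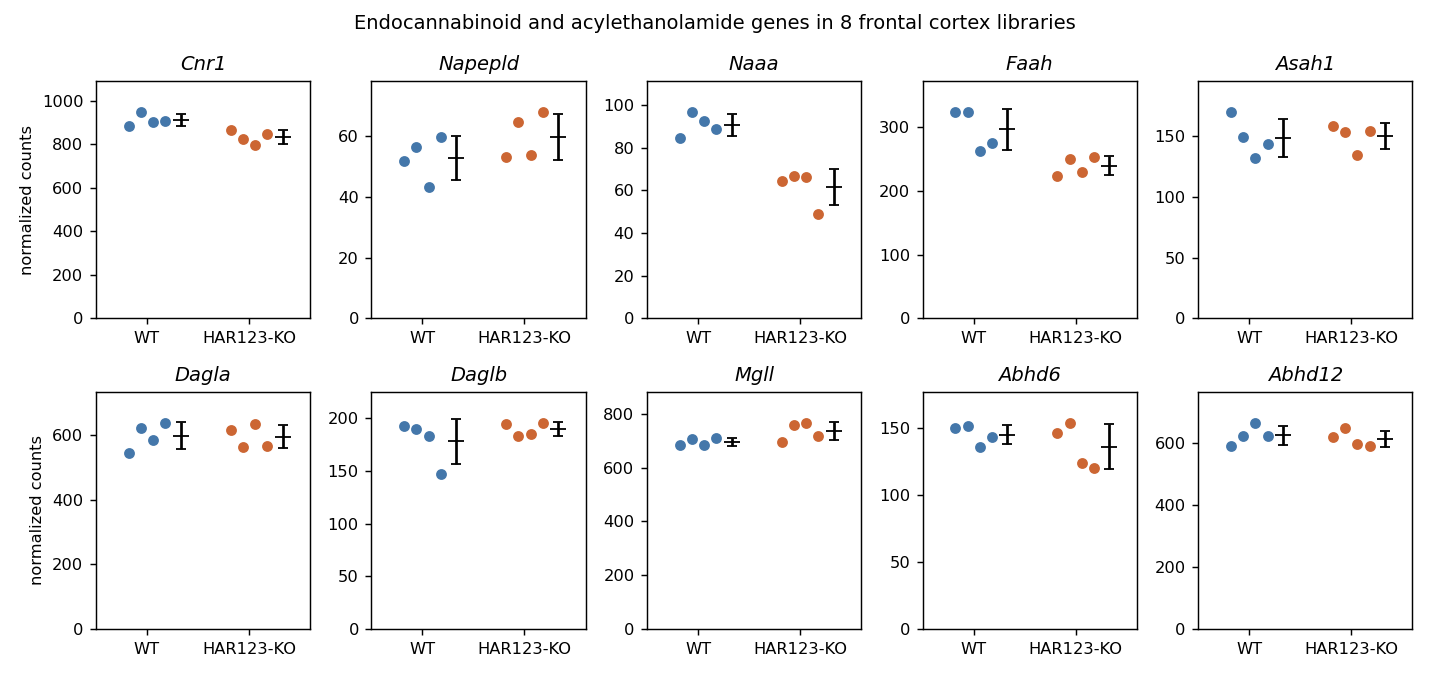
Normalized counts (vertical axes, from 0) of the 10 genes in each WT and HAR123-KO library. Points are libraries in the order of their replicate numbers, and the bar beside them is the mean with the SD of 4 libraries. Naaa (48.9 to 66.6 against 84.4 to 96.8), Faah and Cnr1 show no overlap between genotypes, and the other 7 genes overlap.

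Naaa (ENSMUSG00000029413, chr5:92257659-92278170, minus strand) encodes the lysosomal amidase that prefers palmitoylethanolamide and is known in macrophages. Its WT libraries held 84.4, 96.8, 92.4 and 88.8 normalized counts. Its HAR123-KO libraries held 64.5, 66.6, 66.0 and 48.9. Every HAR123-KO library was below every WT library, and replicate 4 of HAR123-KO was the lowest by far. The log2 fold change was -0.56 ± 0.15 (SE), with an interval of -0.85 to -0.26, and the HAR123-KO mean was 67.9% of the WT mean. The limits used for a call were an adjusted p below 0.05 and a log2 fold change beyond 0.5 in either direction. Naaa was the 1 gene of the 10 beyond both, where 38 of all 12758 genes tested were (0.298%). Since this same contrast led to the choice of Naaa, that count was fixed by the choice and nothing is read from it.

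Naaa had few counts, 46 to 109 raw counts per library. Its place beyond both limits was kept when WT replicate 4 or HAR123-KO replicate 1 was left out and lost when any of WT replicates 1, 2 and 3 or HAR123-KO replicates 2 and 3 was. When HAR123-KO replicate 4 was left out, Naaa was below the independent filter and received no adjusted p. The log2 fold change stayed between -0.59 and -0.47 in those refits. Without HAR123-KO replicate 4 the HAR123-KO mean was 65.7 ± 1.07 (SD, n = 3), still below the lowest WT library, and the log2 fold change was -0.47 ± 0.16.

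Faah (ENSMUSG00000034171, chr4:115967145-116017926, minus strand) encodes the fatty acid amide hydrolase of the endoplasmic reticulum, the main enzyme that degrades anandamide in brain. Its WT libraries held 324, 324, 264 and 275 normalized counts and its HAR123-KO libraries 224, 251, 231 and 254. WT replicates 1 and 2 were well above the rest, whereas WT replicates 3 and 4 were close to the highest HAR123-KO library. DESeq2 gave a log2 fold change of -0.30 ± 0.08 (SE), an interval of -0.47 to -0.14 and an adjusted p of 0.0250, and the HAR123-KO mean was 80.9% of the WT mean. Faah therefore fell by the adjusted p but not by the fold limit. Leaving out WT replicate 1 or 2 raised the adjusted p to 0.337 and 0.367, and over the 8 refits that each left out 1 library it ran from 0.00816 to 0.367, under 0.05 in 3 of them. It was 0.0877 with library totals as size factors, 0.0550 with independent filtering off and 0.0549 with a minimum of 10 counts in 4 libraries.

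Asah1 (ENSMUSG00000031591, chr8:41340197-41374773, minus strand) encodes acid ceramidase, the lysosomal relative of Naaa in sequence, which cuts ceramide and can also cut acylethanolamides. It was at 170, 149, 132 and 143 normalized counts in WT and at 159, 153, 135 and 154 in HAR123-KO. The genotypes overlapped, and the log2 fold change was 0.02 ± 0.11 (SE; interval -0.20 to 0.23; adjusted p by DESeq2, 0.995). The interval of Asah1 lies above the fitted value of both Faah and Naaa.

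The makeup of acylethanolamide breakdown restates these 3 levels as shares. Levels were divided by exon length, and each enzyme was given as a share of the sum of Faah, Naaa and Asah1. Asah1 made up 43.9%, 39.5%, 40.0% and 41.8% of that sum in the WT libraries and 50.5%, 47.5%, 45.7% and 49.9% in the HAR123-KO libraries, without overlap. Since the level of Asah1 itself was the same within its error, its larger share follows from the lower levels of Faah and Naaa in the sum and is no separate result. Naaa made up 23.1% ± 2.33 (WT) and 18.1% ± 2.56 (HAR123-KO), and Faah 35.6% ± 1.27 and 33.5% ± 1.97 (SD, n = 4 each), with overlap between genotypes for both. With the length of the longest transcript in place of all exons, Asah1 was again higher in every HAR123-KO library (41.3% to 46.0% against 35.3% to 39.6%). RNA shares are not shares of enzyme activity.

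Synthesis of 2-AG rests on the 2 diacylglycerol lipases. Dagla (ENSMUSG00000035735, chr19:10245265-10304877, minus strand), the form that serves synaptic signaling in the adult brain, was at 544, 622, 585 and 638 normalized counts in WT and at 616, 562, 634 and 567 in HAR123-KO. The libraries of both genotypes were interleaved. DESeq2 gave a log2 fold change of -0.0041 ± 0.06 (SE), an interval of -0.12 to 0.11 and an adjusted p of 0.998. A change as large as the fitted one in Faah lies outside the interval.

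Daglb (ENSMUSG00000039206, chr5:143464584-143505942, plus strand), the form known in microglia and macrophages, was at 193, 189, 183 and 147 normalized counts in WT and at 195, 183, 185 and 196 in HAR123-KO. WT replicate 4 was the low one, and the genotypes overlapped (log2 fold change 0.09 ± 0.10, SE; interval -0.11 to 0.28; adjusted p by DESeq2, 0.922). Of its exon bases, 24.1% are shared with Rac1 on the opposite strand, and how strand was handled at counting is not stated, so some of these counts may be those of Rac1. Dagla made up 84.8% ± 2.26 of the summed level per kb of both lipases in WT libraries and 83.9% ± 0.941 in HAR123-KO libraries (SD, n = 4 each), with overlap.

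**Figure D2:**
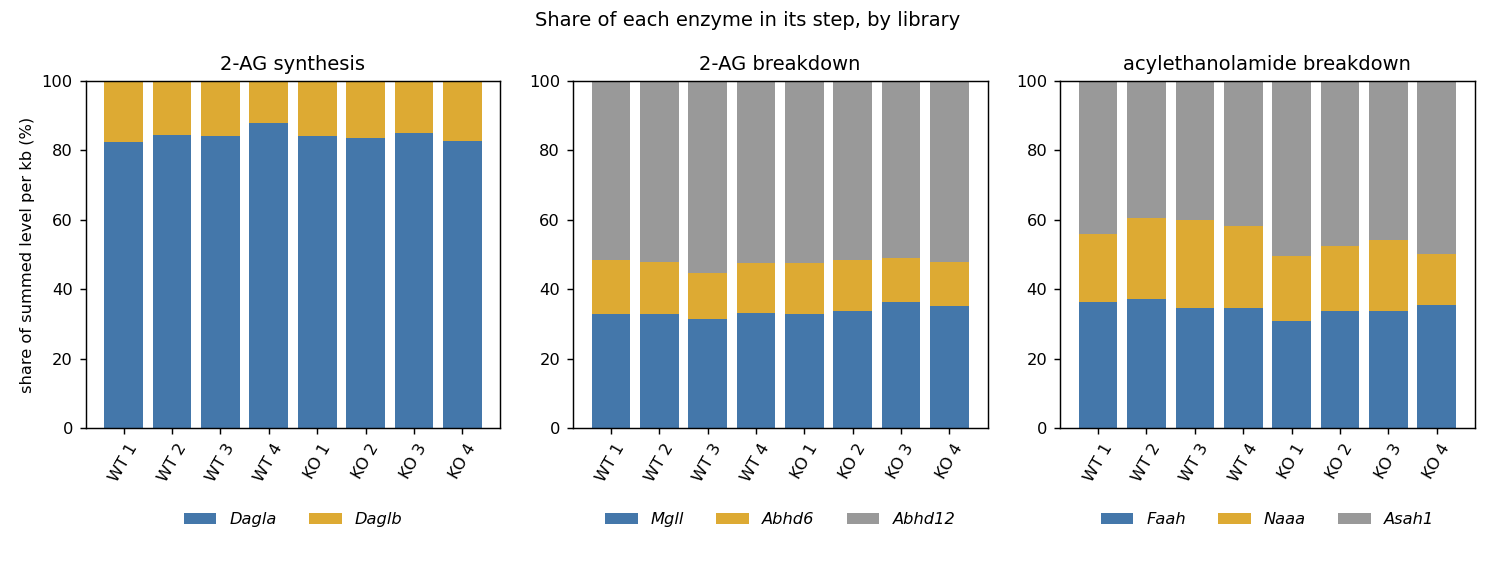
Share (%, vertical axis) of each enzyme in the summed level per kb of exon of its step, in each of the 8 libraries (horizontal axis; KO stands for HAR123-KO). Asah1 takes 39.5% to 43.9% of acylethanolamide breakdown in WT and 45.7% to 50.5% in HAR123-KO, and the makeup of both 2-AG steps overlaps between genotypes.

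Breakdown of 2-AG is shared by 3 serine hydrolases. Mgll (ENSMUSG00000033174, chr6:88724412-88828360, plus strand), the monoacylglycerol lipase that removes most 2-AG in brain, was at 685, 706, 684 and 712 normalized counts in WT and at 697, 760, 768 and 718 in HAR123-KO. The HAR123-KO libraries tended to the higher side but replicate 1 lay inside the WT range. Its log2 fold change was 0.08 ± 0.05 (SE), with an interval of -0.02 to 0.18 and a DESeq2 adjusted p of 0.711. An annotated antisense gene, Gm26588, shares 3.29% of the Mgll exon bases.

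Abhd6 (ENSMUSG00000025277, chr14:8002902-8056763, plus strand), a membrane hydrolase facing the cytosol at sites of 2-AG synthesis, was at 150, 151, 136 and 143 normalized counts in WT and at 146, 154, 124 and 120 in HAR123-KO. HAR123-KO replicates 3 and 4 were the lowest of the 8, replicate 2 was the highest and replicate 1 lay among the WT libraries (log2 fold change -0.09 ± 0.11, SE; interval -0.31 to 0.13; adjusted p by DESeq2, 0.943). Abhd12 (ENSMUSG00000032046, chr2:150832493-150904741, minus strand), which also cuts lysophosphatidylserine and whose loss causes a human neurodegenerative disease, was at 592, 622, 666 and 622 in WT and at 619, 648, 598 and 591 in HAR123-KO. Its genotypes overlapped, with a log2 fold change of -0.03 ± 0.05 (SE; interval -0.14 to 0.08; adjusted p by DESeq2, 0.975). In shares of the summed level per kb, Mgll, Abhd6 and Abhd12 made up 32.7%, 14.6% and 52.7% in WT and 34.5%, 13.7% and 51.8% in HAR123-KO.

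**Figure D3:**
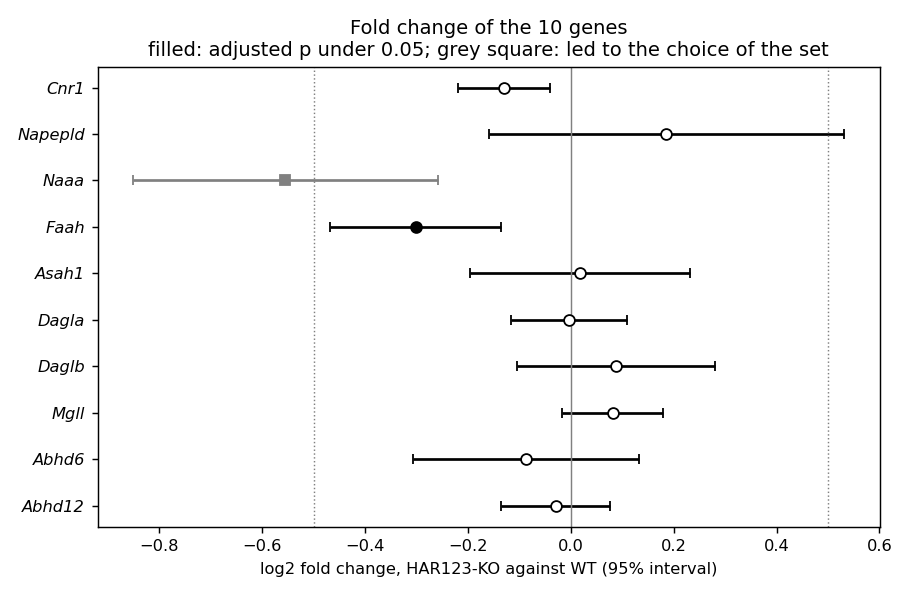
Log2 fold change of HAR123-KO against WT (horizontal axis) with its 95% interval for each of the 10 genes, dotted lines at the fold limit of 0.5 on either side, a filled point for an adjusted p under 0.05 and a grey square for Naaa, which led to the choice of the set. Naaa lies at -0.56, Faah (-0.30) is filled, the interval of Cnr1 stays below 0, and the other 7 intervals cover 0.

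Set beside all genes, 2 of the 10 had an adjusted p under 0.05 and a lower level in HAR123-KO (Faah and Naaa), where 0.713% of tested genes did, and 0 of 10 had one with a higher level, where 0.972% did. At an unadjusted p under 0.05 there were 3 of 10, the third being Cnr1, where 8.78% of tested genes were. Genotypes did not overlap, with HAR123-KO lower, for these same 3 genes, where this held for 3.65% of tested genes, and for 0 of 10 with HAR123-KO higher, where it held for 4.02%. The median log2 fold change of the 10 genes was -0.017 and that of all tested genes -0.0017, and 4 of the 10 were above 0. These counts describe genes chosen with the contrast known. Naaa, which led to the choice, is in the counts at the adjusted p, at the unadjusted p and without overlap. Those counts are therefore not read as an excess over all genes. With Naaa set aside, only Faah is left at the adjusted p, and only Faah and Cnr1 at the unadjusted p and without overlap.

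Levels between genes were compared per kb of exon. In WT, Abhd12 was highest at 222 ± 10.8 normalized counts per kb (SD, n = 4), followed by Cnr1 at 141 ± 4.19, Mgll at 137 ± 2.91 and Dagla at 104 ± 7.28. Abhd6 (61.3 ± 3.03), Asah1 (43.9 ± 4.68) and Faah (37.9 ± 4.10) were intermediate. The lowest were Naaa at 24.3 ± 1.41, Daglb at 18.6 ± 2.22 and Napepld at 13.4 ± 1.83. Ranges over the WT libraries overlapped between neighbours in this order only for Cnr1 with Mgll and for Asah1 with Faah. The genes of 2-AG turnover and the receptor thus held the higher places and those of acylethanolamide turnover the lower ones, with Daglb as the exception.

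The order was nearly the same in HAR123-KO. Mgll (145 per kb) stood above Cnr1 (129), and Daglb (19.8 ± 0.696) above Naaa (16.5 ± 2.27). Abhd12 had a higher level per kb than 95.7% of the tested genes, and Napepld than 30.1%. With the longest transcript as length, Mgll stood above Cnr1 in WT too.

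**Figure D4:**
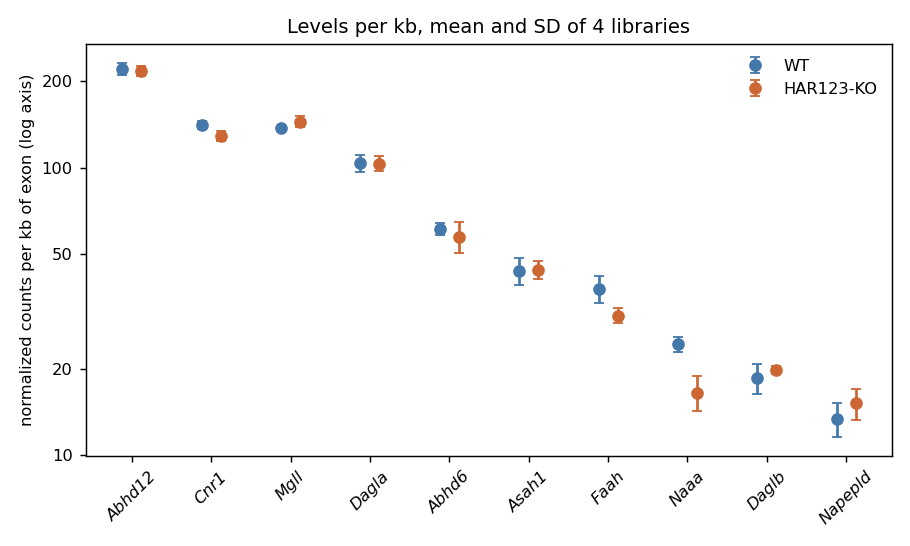
Normalized counts per kb of exon (log axis) of the 10 genes in WT and HAR123-KO, as mean and SD of 4 libraries, ordered by the WT mean. Abhd12 (222 per kb in WT) is highest and Napepld (13.4) lowest, and only Naaa and Daglb, and Cnr1 and Mgll, change places in HAR123-KO.

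The other genes of the pathway were taken from lists of 60 genes by role, of which 45 received an adjusted p. None passed both limits, where 0.298% of all tested genes did. The quasi-likelihood test of edgeR and limma-voom passed none either, 9 had an unadjusted p under 0.05 in DESeq2 (8.78% of all tested genes did), 21 were above 0 and 24 below (49.4% of all tested genes were above), and the median log2 fold change was -0.0055. By the adjusted p alone, 2 rose (Grm5 and Dgkb, named after their values were seen) and 1 fell (Gnao1), where 0.972% of all tested genes rose and 0.713% fell by that limit. Genotypes did not overlap for 5 of the 45 with HAR123-KO higher and for 1 with HAR123-KO lower, against 4.02% and 3.65% of all tested genes.

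Of the targets of these lipids other than CB1, 8 were listed. Cnr2 (the CB2 receptor), Gpr18 and Trpv1 had means under 1 normalized count, Gpr119 was at 0 in all libraries, and 2 of the 8 received an adjusted p. One was Ppard, a lipid-sensing nuclear receptor, at 101 ± 12.03 normalized counts in the WT libraries and 86.2 ± 5.38 in the HAR123-KO libraries (SD, n = 4 each; log2 fold change -0.22 ± 0.14, SE; adjusted p by DESeq2, 0.708). The other was Pparg, also a nuclear receptor, at 29.6 ± 2.27 and 25.6 ± 7.43 (log2 fold change -0.19 ± 0.25, SE; adjusted p by DESeq2, 0.948). Ppara, the nuclear receptor that palmitoylethanolamide acts on, was below the independent filter, at 13.4 ± 2.97 and 12.4 ± 3.50 (SD, n = 4 each; log2 fold change -0.12 ± 0.37, SE), with overlap. Gpr55 had a mean of 1.24, so it and the 4 receptors named first could not be compared at this depth.

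Among 7 partners of CB1, Gnao1 fell. It encodes the most abundant G protein alpha subunit of brain, through which CB1 signals, and was at 2675 ± 53.5 normalized counts in the WT libraries and 2479 ± 49.95 in the HAR123-KO libraries (SD, n = 4 each). The WT libraries ran from 2608 to 2721 and the HAR123-KO libraries from 2421 to 2527, without overlap, and the log2 fold change was -0.11 ± 0.03 (SE; adjusted p by DESeq2, 0.0157). Gnao1 lost the adjusted p when any of WT replicates 1, 2 and 3 or HAR123-KO replicates 2 and 3 was left out (0.0113 to 0.191 over the 8 refits) and with library totals as size factors (0.543), all by DESeq2. The other 6 partners were above 0, none with an adjusted p under 0.05. In 2 of these 6, named after their values were seen, the genotypes did not overlap in the direction opposite to Gnao1. Over all tested genes that held for 4.02%, and for 3.65% in the direction of Gnao1. Sgip1, which slows the internalization of CB1, ran from 868 to 942 normalized counts over the WT libraries and from 956 to 1003 over the HAR123-KO libraries (log2 fold change 0.11 ± 0.04, SE; adjusted p by DESeq2, 0.332). Gprasp1, which sorts receptors such as CB1 to the lysosome, ran from 1517 to 1572 and from 1613 to 1682 (log2 fold change 0.09 ± 0.03, SE; adjusted p by DESeq2, 0.219).

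For acylethanolamide synthesis, 7 of 10 listed genes were tested, 4 above 0 and 3 below, and none had an adjusted p under 0.05. The one with the largest fitted change was Hrasls, an N-acyltransferase that makes the precursors (60.9 ± 11.4 normalized counts for WT and 80.0 ± 17.1 for HAR123-KO, SD, n = 4 each; log2 fold change 0.40 ± 0.17, SE; adjusted p by DESeq2, 0.382). Gde1, a phosphodiesterase on an alternative route, had the highest level per kb of this list (258 in WT) and a log2 fold change of -0.12 ± 0.07 (SE; adjusted p by DESeq2, 0.634).

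Supply and removal of diacylglycerol, the substrate of Dagla and Daglb, held the other 2 genes past the adjusted p. Grm5, the glutamate receptor whose activation starts 2-AG synthesis, ran from 1090 to 1215 normalized counts in WT and from 1307 to 1330 in HAR123-KO. The fitted log2 change was 0.19 ± 0.04 (SE; adjusted p by DESeq2, 0.000425). Dgkb, a diacylglycerol kinase that removes the same substrate, ran from 921 to 1010.0 in WT and from 1121 to 1146 in HAR123-KO, with a fitted log2 change of 0.22 ± 0.04 (SE; adjusted p by DESeq2, 3.13e-05). Both genes rose without overlap and below the fold limit. Plcb1 was also higher without overlap (log2 fold change 0.07 ± 0.03, SE; adjusted p by DESeq2, 0.557). That made 3 of the 14 tested genes of this list, where 4.02% of all tested genes were higher without overlap. Of the 14 tested genes of this list 5 were above 0 and 9 below, among them Dgkz (258 per kb, the highest; log2 fold change -0.06 ± 0.04, SE) and Dgka (log2 fold change -0.39 ± 0.25, SE; adjusted p by DESeq2, 0.725).

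Genes for oxygenation and other hydrolysis of endocannabinoids (4 of 7 tested), carriers of these lipids (4 of 4) and ceramide and lysosomal sphingolipid enzymes (7 of 9) had no member with an adjusted p under 0.05. Abhd2, a hydrolase of 2-AG, had a log2 fold change of 0.10 ± 0.05 (SE). Fabp3 had the highest level per kb of the carriers (152 in WT) and a log2 fold change of 0.07 ± 0.12 (SE). Fabp7, a fatty acid binding protein of astrocytes and progenitors that carries anandamide, had the largest fitted change at a low level (29.7 ± 6.88 and 19.8 ± 4.79 normalized counts, SD, n = 4 each; log2 fold change -0.59 ± 0.27, SE; adjusted p by DESeq2, 0.466), with overlap. Psap, the precursor of the proteins that help acid ceramidase and its neighbours in the lysosome, was the most abundant at 1354 per kb in WT (log2 fold change 0.05 ± 0.03, SE), and Asah2, neutral ceramidase, had a log2 fold change of -0.21 ± 0.16 (SE).

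**Figure D5:**
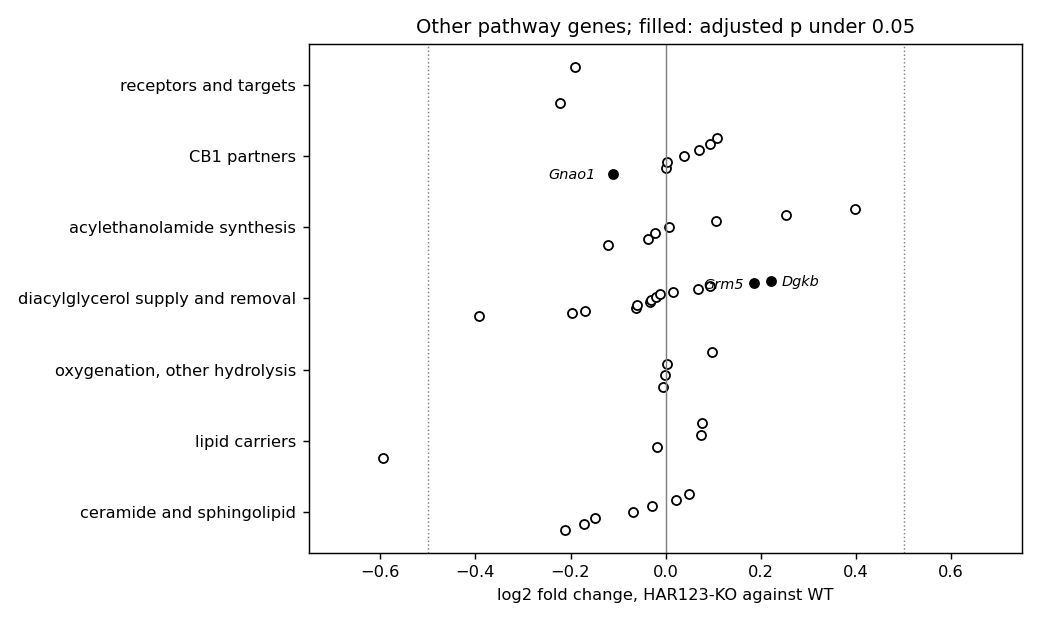
Log2 fold change of HAR123-KO against WT (horizontal axis) of the 45 other pathway genes with an adjusted p, by role, with dotted lines at the fold limit of 0.5 on either side. Filled points have an adjusted p under 0.05: Dgkb (0.22) and Grm5 (0.19) are higher in HAR123-KO and Gnao1 (-0.11) is lower, all inside the limits, and Fabp7 (-0.59) is outside but not filled.

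In bulk tissue, fewer cells of a type and less RNA per cell cannot be told apart, so markers of the cells that could carry these genes are given beside them. Microglial markers, beside Naaa and Daglb, summed to 402 to 436 CPM in WT and 385 to 398 in HAR123-KO, lower without overlap, with 9 of the 11 tested markers below 0 and none with an adjusted p under 0.05. Markers of perivascular macrophages summed to 7.52 to 15.3 CPM in WT and 7.16 to 12.7 in HAR123-KO, with Lyve1, Pf4 and Ms4a7 under 3 normalized counts. Lysosomal genes, beside Naaa and Asah1, summed to 1446 to 1471 CPM in WT and 1461 to 1486 in HAR123-KO, and overlapped, with 6 of 12 on each side of 0. The part of the microglial difference in the level of Naaa was not tested.

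Markers of astrocytes summed to 6966 to 7148 CPM in WT and 6448 to 6614 in HAR123-KO and those of endothelial cells to 140.0 to 151 and 119 to 126, both sums lower in HAR123-KO, with 7 of 8 and 8 of 8 markers below 0 and 3 and 0 of them with an adjusted p under 0.05. The neuronal sum was 7477 to 7524 in HAR123-KO against 7619 to 7722 CPM in WT, but 3 of the 8 markers were above 0 and 1 of the 5 below had an adjusted p under 0.05. Higher sums in HAR123-KO were those of oligodendrocyte markers (5484 to 5574 against 4832 to 4984 CPM, 7 of 8 above 0 and 4 with an adjusted p under 0.05), striatal projection neuron markers (2237 to 2261 against 1757 to 1803) and choroid plexus markers (388 to 422 against 280.0 to 298). Of the 7 choroid plexus markers only 2 received an adjusted p, and these 2 were above 0 with an adjusted p under 0.05. Enpp2, which oligodendrocytes also express, made up most of the sum with a mean of 1043 normalized counts. Of the 9 striatal markers all 9 were above 0 and 8 had an adjusted p under 0.05. Cnr1, Grm5 and Dgkb are all known to be abundant in striatal neurons. Their log2 fold changes were -0.13 for Cnr1, 0.19 for Grm5 and 0.22 for Dgkb. The striatal sum differed between genotypes without overlap, so striatal content and genotype cannot be told apart in these libraries. Cnr1 is also known in interneurons that make cholecystokinin, whose markers summed to 166 to 221 CPM in WT and 153 to 196 in HAR123-KO and overlapped. Of these 5 markers 2 were tested, 2 of 2 below 0 and none with an adjusted p under 0.05. Sncg and Krt73 were under 3 normalized counts. GABA interneuron markers summed to 759 to 788 CPM in HAR123-KO and 716 to 752 in WT, with 4 of 6 above 0, 2 below and none with an adjusted p under 0.05. The part of these differences in the levels of Cnr1, Faah, Grm5 and Dgkb was not tested.

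No gene overlaps the span of Naaa. Of the 13 annotated genes within 100 kb, only Sdad1 and Uso1 had enough counts to be tested. Sdad1, a ribosome biogenesis factor 5840 bases upstream of the Naaa start, was at means of 84.6 (WT) and 85.3 (HAR123-KO) normalized counts (log2 fold change 0.01 ± 0.14, SE; adjusted p by DESeq2, 0.998). Uso1, a vesicle tethering factor 54861 bases away, had a log2 fold change of 0.13 ± 0.08 (SE; adjusted p by DESeq2, 0.688). Ppef2, 1381 bases away, and Art3 had means of 3.05 and 7.22 normalized counts, and the other 9 genes were at or near 0.

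The genes whose levels tracked Naaa most closely over the 8 libraries (Pearson's r on log2 of normalized counts plus 1, 9279 genes compared, as a description) were Apln (r = 0.984), Ednrb (0.982), Rxfp1 (0.966), Ncald (0.961) and Sarm1 (0.959). All were lower in HAR123-KO, by fitted log2 fold changes of -0.47, -0.40, -0.57, -0.18 and -0.34. The genotype difference and the low Naaa value of HAR123-KO replicate 4 both enter each r, and their parts were not tested. Of the other 9 endocannabinoid genes, Cnr1 (r = 0.738) and Faah (0.650) were most like Naaa and Napepld (-0.586) least. The 8 libraries share 2 genotypes, and these r values describe them only.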

How the data were processed

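Total RNA of frontal cortex was depleted of ribosomal RNA, made into directional paired-end libraries and sequenced. The authors aligned reads to GRCm38 with STAR 2.5.2b and deposited raw read counts per gene from featureCounts (Subread), per the labels' processing notes. Whether counting used strand, and what was done with multi-mapping reads, is not given in the sources used here, and 0 columns of other samples were in the table. All 55536 identifiers were matched to GENCODE M21, with the same start and end. Totals of 13528251 to 17051001 counts gave 2786320 to 3732172 counts on nuclear protein-coding genes, and the error bars cover these libraries only.

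Libraries were grouped by title. DESeq2 1.42.0 (R 4.3.3, size factors by the median of ratios, with genotype alone in the model) was fitted to all genes, and Wald p-values were adjusted by Benjamini-Hochberg over the 12758 genes kept by independent filtering tuned to 0.1 (mean of at least 17.6 normalized counts). A call needed an adjusted p below 0.05 and a log2 fold change beyond 0.5 in either direction. Intervals are 95% Wald intervals. The script was tested on simulated data first. Alternatives were edgeR 4.0.16, limma-voom (limma 3.58.1), other size factors, filters and limits, other gene lengths, a replicate block and leaving out each library.

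The 10 genes and all lists were chosen with earlier results of these data known. Besides the 10, named genes are, in each pathway list, the one with the highest level per kb, the one with the largest fold change (mean of at least 20 normalized counts) and any called, the neighbours of a called gene within 100 kb, and the 5 genes most and least like Naaa (mean of at least 50), of which the least like are not listed. Grm5, Dgkb, Plcb1, Sgip1, Gprasp1, Pparg, Ppara, Gpr55, Cnr2, Gpr18, Trpv1, Gpr119, Enpp2 and the low macrophage and interneuron markers fall outside that rule and were named after their values were seen. Promoter windows came from RefSeq (GRCm38.p6).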

Additional observations from a re-analysis of the deposited data

Results flagged for a closer look

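HAR123-KO replicate 4 stood apart in Naaa, at 48.9 normalized counts where the other 3 HAR123-KO libraries held 64.5 to 66.6. The gap to the nearest library was 0.883 of the range of the group, above Dixon's 95% critical value of 0.829 for 4 values. It was the 1 group set apart of 20 examined (10 genes in each genotype), and chance sets apart about 1 in 20. No cause was tested.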

How the results depend on the processing

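Over all genes 38 were called, 29 of them higher in HAR123-KO. There were 73 with edgeR (48 higher), 215 with no minimum fold change (124 higher), 3 with the stricter limits of 0.01 and 1, and 11 to 44 when 1 library was left out (11 when it was HAR123-KO replicate 4, 18 when it was WT replicate 3). Of the 10 genes 1 was called, against 2 with no minimum fold change (Faah joined Naaa), 0 with the stricter limits and 0 to 1 when 1 library was left out. Of the other pathway genes 0 were called, against 3 with no minimum fold change and 0 to 0 with a library left out.

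The replicate numbers did not pair the libraries (correlations of same-numbered deviations -0.0095, -0.0041, 0.029 and -0.027). With the replicate block 9 genes were called over all genes and 0 of the 10, with a log2 fold change of -0.56 for Naaa. The block left Faah, Grm5, Dgkb and Gnao1 at log2 fold changes of -0.30, 0.19, 0.22 and -0.11, each with an adjusted p of 0.99995 by DESeq2.

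Library totals as size factors moved the median of all genes to 0.037 and turned Dagla to 0.035 and Abhd12 to 0.0090. With 1 library left out, Dagla ran from -0.043 to 0.027, Asah1 from -0.039 to 0.086 and Abhd12 from -0.056 to 0.0051. In the same refits Daglb ran from 0.0081 (without WT replicate 4) to 0.12 and Hrasls from 0.24 to 0.49. Dgka ran from -0.47 to -0.15, the latter without WT replicate 3. Of 180 values for the 10 genes 162 kept their direction and side of the threshold, as did 231 of 234 for named pathway genes. Only Naaa was called at first, so for the other genes staying uncalled counts as kept, even where an adjusted p under 0.05 was lost. Naaa itself was called in 10 of 18 alternative settings. With the longest transcript as length, the highest level over the lowest was 23.4 in place of 16.6, and WT shares were 74.4% for Dagla, 31.6% for Mgll, 37.0% for Faah and 26.0% for Naaa. The cause of these shifts was not tested beyond the setting itself.

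Of the 10 genes, Napepld and Naaa, which had the fewest counts, had the largest standard errors, 0.18 and 0.15 on the log2 scale.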
